A study of Homo sapiens with 6 samples.

Results

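The WNT ligands, their receptors and their secreted regulators were followed across 6 human prostate cancer cell lines. Genes were chosen by name among the protein-coding entries of the deposited tables: the WNT ligands, the Frizzled (FZD) receptors, ROR1 and ROR2, LRP5 and LRP6, the R-spondins (RSPO), the secreted Frizzled-related proteins (SFRP) and the Dickkopf proteins (DKK). The rule found 45 genes among 19959 protein-coding entries and 51698 entries in all. They comprised 19 WNT genes, 10 FZD genes, 2 ROR genes, 2 LRP genes, 4 RSPO genes, 4 SFRP genes and 4 DKK genes. The castration-sensitive lines were LnCaP and LAPC4, kept in RPMI with 10% fetal bovine serum, and VCaP, kept in DMEM with 10% of the same serum. The resistant lines were LAPC4-CR, VCaP-CR and LnCaP-abl, each with the name of a sensitive line and kept in RPMI with 10% charcoal-stripped (steroid-depleted) serum and B27 supplement. No line had any other treatment, and each line was 1 established line and 1 library of total RNA. Castration state and medium differed together in every pair and cannot be told apart.

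WNT proteins are secreted lipid-modified ligands. In the canonical branch a WNT protein joins a Frizzled receptor to the co-receptor LRP5 or LRP6, the complex that destroys β-catenin is held back, and β-catenin acts with TCF/LEF factors on target genes. WNT5A is best known as a ligand of the non-canonical branch, which works through Frizzled receptors and the receptor tyrosine kinases ROR1 and ROR2 on cell shape, polarity and movement. Secreted Frizzled-related proteins bind WNT ligands, Dickkopf proteins block LRP5 and LRP6, and R-spondins protect the receptors from degradation through LGR4, LGR5 and LGR6 and the ubiquitin ligases RNF43 and ZNRF3.

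Levels are given as scaled FPKM, that is, deposited FPKM (the count scaled by gene length and library total) divided by 1 factor per library (0.863 to 1.08). Total counts ran from 8661337 to 22433655 per library, with more counts in the resistant library of every pair. A change is a difference on the log2(scaled FPKM + 1) scale, resistant library less its parent, which understates the change of low genes. A fold is the ratio of scaled FPKM with an exact 95% binomial interval, which covers counting error only. Of 10 luminal prostate markers, 10 were at 1 scaled FPKM or more in LnCaP, VCaP, VCaP-CR and LAPC4, 8 in LnCaP-abl, where KLK3 was at 0.667 and KLK2 at 0.666, and 9 in LAPC4-CR, where TMPRSS2 was at 0.655. ERG, which is fused in VCaP, was at 16.6 in VCaP, at 5.42 in VCaP-CR and at most at 0.191 elsewhere. Markers of leukocytes summed to 0.917 to 2.22 and basal markers to 0.696 to 2.28. The 7 fibroblast markers summed to 2.20 to 5.44 in 5 libraries and to 51.7 in VCaP-CR, where LUM alone was at 49.8. The other 6 fibroblast markers lay between 0.127 and 0.945 in all libraries, and the part of the LUM signal in the VCaP-CR values was not tested. None of the markers was at 0 counts in any library.

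Of the 45 genes, 23 reached 1 scaled FPKM in at least 1 library: 8 WNT genes, 9 FZD genes, ROR1 and ROR2, LRP5 and LRP6, RSPO1 and SFRP1. The other 22 stayed below 1 in every library, with levels from 0 to 0.944 (median 0.300) and 0 to 65 counts. The 6 leukocyte and endothelial markers, genes that these epithelial lines should not use, had levels from 0.0888 to 1.34 (median 0.300), so levels under 1 are not read here as expression. A fold with a side under 1 is uncertain in size, and its counting interval does not cover this. Across families, 19 of the 45 genes averaged 1 scaled FPKM or more in the 6 libraries and entered the tests with 17415 genes in all. The 26 that did not enter were 14 WNT genes, FZD10, ROR2, 3 R-spondins, 3 secreted Frizzled-related proteins and the 4 Dickkopf genes. A gene could also enter through a single line in which it was high.

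**Figure D1:**
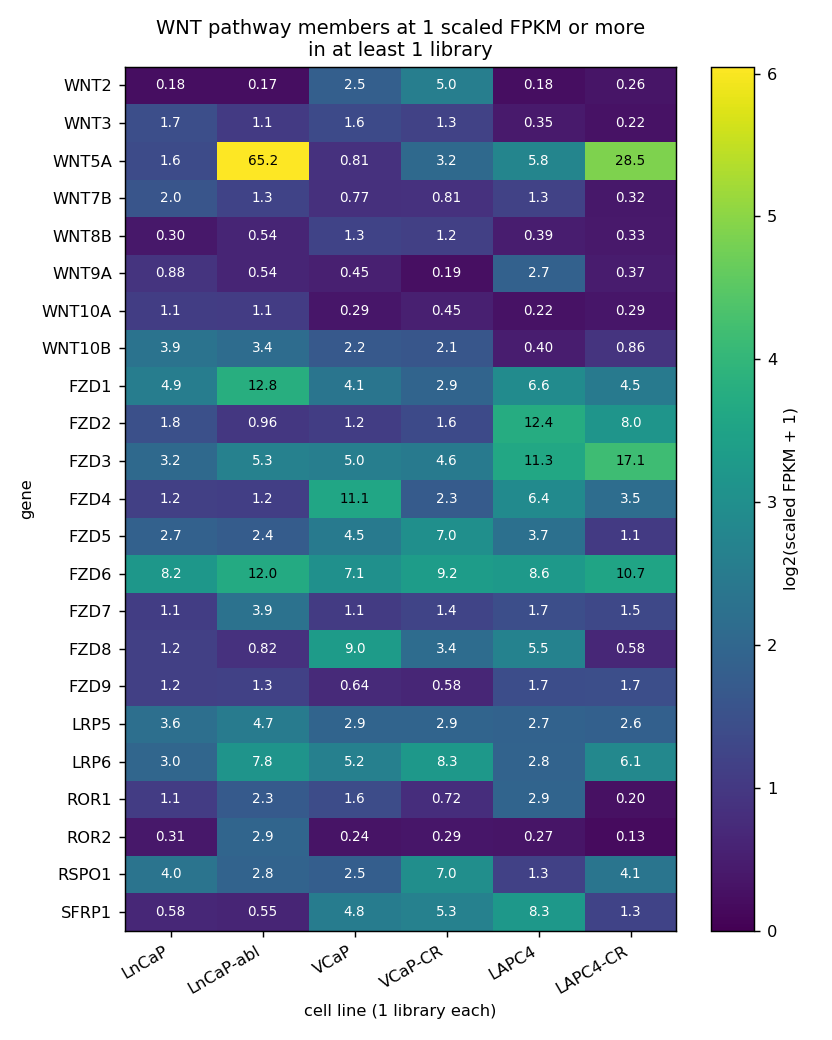
Heat map of log2(scaled FPKM + 1) for the 23 genes that reached 1 scaled FPKM in at least 1 library, with the 6 libraries in columns and genes grouped by role. WNT5A in LnCaP-abl (65.2 scaled FPKM) and LAPC4-CR (28.5) are the 2 brightest cells, and most WNT genes stay dark in all lines.

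WNT5A was the ligand that differed most between sensitive and resistant lines. The gene (ENSG00000114251, chromosome 3, 55474783 to 55499013 in the deposited coordinates; the submitters' processing notes name hg18) had 105 counts in LnCaP against 5177 in LnCaP-abl, 56 in VCaP against 353 in VCaP-CR, and 527 in LAPC4 against 4766 in LAPC4-CR. Its scaled FPKM was 1.62 in LnCaP against 65.2 in LnCaP-abl, 0.814 in VCaP against 3.16 in VCaP-CR, and 5.75 in LAPC4 against 28.5 in LAPC4-CR. Every resistant line was above its own parent, but the groups overlapped because LAPC4 stood above VCaP-CR. The ratio was 40.2-fold in the LnCaP pair (33.1 to 49.2), 3.89-fold in the VCaP pair (2.93 to 5.25) and 4.96-fold in the LAPC4 pair (4.53 to 5.43). There was 1 library per state in each line, so no change within a line has a replicate check, and in cultures measured in bulk fewer cells with the RNA and less RNA per cell cannot be told apart.

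The mean change of WNT5A was 2.66 ± 1.79 (SD, n = 3 pairs), and the exact two-sided sign-flip permutation p was 0.25, the smallest that 3 pairs allow. The edgeR quasi-likelihood test with the parental line as a block gave a log2 change of 3.13 (SE 0.69, Benjamini-Hochberg adjusted p = 0.526). The call depended on the method: the adjusted p was 0.000165 with DESeq2, 0.00246 with edgeR and no filter on low values, and 0.00235 with edgeR without the LAPC4 pair. Over all alternatives it ran from 0.000165 to 0.9999. Ranked by change among 17415 tested genes, WNT5A was 18th highest in the LnCaP pair, 273rd in the VCaP pair and 100th in the LAPC4 pair. Only 11 tested genes (0.0632%) were at least 2-fold higher in all 3 pairs on this scale, WNT5A among them.

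The genes whose smallest change over the 3 pairs was at least as large as WNT5A's (1.20) were AMIGO2 (2.19), DOCK10 (1.76), NXF2B (1.51), BAMBI (1.46), NEDD9 (1.34), CLU (1.29) and IQGAP1 (1.25). BAMBI encodes a decoy receptor of TGF-β signalling, NEDD9 an adhesion scaffold and IQGAP1 a cytoskeletal scaffold. NXF2B has near-identical copies, so its counts are uncertain. In the deposited annotation the antisense entry WNT5A-AS1 lies inside WNT5A (55496767 to 55497376), with 3 and 158 counts in LnCaP and LnCaP-abl, 6 and 10 in VCaP and VCaP-CR, and 9 and 79 in LAPC4 and LAPC4-CR. Whether the counting used strand is not given in the sources used here, so reads of the 2 genes cannot be told apart. The neighbouring protein-coding gene ERC2 stayed between 0.237 and 1.17 scaled FPKM, and LnCaP-abl was the only library in which it exceeded 1.

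The bases before the start sites of WNT5A, of both ROR receptors and of the antagonist DKK1 are shown. WNT5A and its receptors ROR1 and ROR2 are the ligand and receptors set side by side here. Among the 31 of the 45 genes with a RefSeq window, only DKK1 had the TCF/LEF core in its window. The 250 bases before each start come from RefSeq in GRCh38.p14, a build other than the hg18 named for the deposited data, and run 5′ to 3′ on the gene's strand. They lie at chr3:55481399-55481648 and chr3:55487307-55487556 for the 2 WNT5A starts (minus strand), chr1:63773767-63774016 for ROR1 (plus strand), chr9:91950229-91950478 for ROR2 (minus strand) and chr10:52314031-52314280 for DKK1 (plus strand). Capitals mark the TCF/LEF core CTTTGA or its reverse complement TCAAAG.
WNT5A at chr3:55481399-55481648: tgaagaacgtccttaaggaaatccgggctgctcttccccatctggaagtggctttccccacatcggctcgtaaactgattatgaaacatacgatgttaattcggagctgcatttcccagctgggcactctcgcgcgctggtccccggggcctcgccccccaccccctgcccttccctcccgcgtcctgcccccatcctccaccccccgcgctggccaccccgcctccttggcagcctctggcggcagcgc
WNT5A at chr3:55487307-55487556: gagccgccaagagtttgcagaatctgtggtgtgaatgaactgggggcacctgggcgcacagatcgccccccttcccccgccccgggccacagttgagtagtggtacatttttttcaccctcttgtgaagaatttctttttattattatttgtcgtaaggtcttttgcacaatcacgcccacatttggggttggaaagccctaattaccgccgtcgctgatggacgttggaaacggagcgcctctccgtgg
ROR1: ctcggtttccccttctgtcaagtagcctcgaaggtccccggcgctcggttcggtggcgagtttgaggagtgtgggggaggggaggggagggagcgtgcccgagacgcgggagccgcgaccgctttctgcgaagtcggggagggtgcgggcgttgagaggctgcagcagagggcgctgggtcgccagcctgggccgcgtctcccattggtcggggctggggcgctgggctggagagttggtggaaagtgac
ROR2: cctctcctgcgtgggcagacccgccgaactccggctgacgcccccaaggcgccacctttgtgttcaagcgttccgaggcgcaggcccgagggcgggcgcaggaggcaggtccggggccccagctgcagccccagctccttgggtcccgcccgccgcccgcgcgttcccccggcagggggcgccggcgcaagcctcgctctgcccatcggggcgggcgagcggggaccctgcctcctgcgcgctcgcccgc
DKK1: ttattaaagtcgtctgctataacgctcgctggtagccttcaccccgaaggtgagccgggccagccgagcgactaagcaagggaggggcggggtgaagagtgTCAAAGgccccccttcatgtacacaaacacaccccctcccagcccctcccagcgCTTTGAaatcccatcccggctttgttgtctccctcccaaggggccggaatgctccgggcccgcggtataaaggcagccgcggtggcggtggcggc
The core was searched on both strands, as was the steroid receptor hexamer AGAACA with its reverse complement TGTTCT. DKK1 held 2 matches to the TCF/LEF core and the WNT5A, ROR1 and ROR2 windows held 0 matches to either motif, which says only that these letters are not in these windows. RefSeq windows were found for 31 of the 45 genes (34 windows). Of these windows 1 held the TCF/LEF core (DKK1) and 1 the steroid receptor hexamer (WNT8B), against 11.2% and 12.4% of all 35116 windows of the same length. The windows were rich in G and C, with 64.4% and 52.8% for the 2 WNT5A starts, 69.2% for ROR1, 78.0% for ROR2 and 62.8% for DKK1, and with 18, 14, 24, 32 and 18 CG dinucleotides in the same order.

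The other WNT genes were low, none above 5 scaled FPKM in any library. WNT2, a canonical ligand (ENSG00000105989, chromosome 7, 116703921 to 116750579), had 76 counts in VCaP against 241 in VCaP-CR and 5 to 19 counts in the other 4 libraries. Its scaled FPKM was 2.54 in VCaP, 4.96 in VCaP-CR and 0.174 to 0.261 elsewhere, and VCaP-CR was 1.96-fold above VCaP (1.51 to 2.57). Both VCaP lines thus stood apart from the LnCaP and LAPC4 lines. WNT10B, a canonical ligand, was at 3.93 in LnCaP against 3.37 in LnCaP-abl, 2.21 in VCaP against 2.07 in VCaP-CR, and 0.401 in LAPC4 against 0.864 in LAPC4-CR. Both LAPC4 lines were lowest. The ratio of LAPC4-CR to LAPC4 was 2.15 (1.18 to 4.19) on 14 and 55 counts. Both levels were under 1, so no direction is read in that pair. WNT3, another canonical ligand, was at 1.72 and 1.05 in LnCaP and LnCaP-abl, 1.55 and 1.29 in VCaP and VCaP-CR, and 0.354 and 0.222 in LAPC4 and LAPC4-CR, on 7 to 31 counts. It too was lowest in the LAPC4 lines.

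WNT9A and WNT7B were highest in sensitive lines. WNT9A was at 2.67 scaled FPKM in LAPC4 against 0.371 in LAPC4-CR, a 7.20-fold lower level (4.96 to 10.7), and between 0.186 and 0.879 in the other 4 libraries. Those 4 libraries were all under 1, so no direction is read in the LnCaP and VCaP pairs. WNT7B was at 2.03 in LnCaP against 1.33 in LnCaP-abl, 0.775 in VCaP against 0.809 in VCaP-CR, and 1.28 in LAPC4 against 0.319 in LAPC4-CR, where it was 4.02-fold below LAPC4 (2.73 to 6.03). Both WNT9A and WNT7B were under 1 in LAPC4-CR, so the sizes of these folds are uncertain. WNT8B reached 1.33 in VCaP against 1.23 in VCaP-CR and stayed between 0.303 and 0.535 elsewhere. WNT10A was at 1.12 in LnCaP against 1.10 in LnCaP-abl and between 0.221 and 0.454 in the other lines.

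Several WNT genes lie side by side in the genome, and levels are compared here for WNT9A with WNT3A and for WNT10B with WNT1. WNT9A and WNT3A are 59.12 kb apart on chromosome 1. WNT3A stayed between 0.254 and 0.411 scaled FPKM, while WNT9A reached 2.67 in LAPC4 and was under 1 in the other libraries. WNT10B and WNT1 are 6.851 kb apart on chromosome 12, and WNT1 stayed at 0.244 or less. WNT3 and WNT9B (14.538 kb apart, chromosome 17) and WNT6 and WNT10A (6.129 kb apart, chromosome 2) form the other neighbours within 100 kb. The summed level of all 19 WNT genes was 16.0 in LnCaP against 75.8 in LnCaP-abl, 14.1 in VCaP against 17.4 in VCaP-CR, and 14.6 in LAPC4 against 34.2 in LAPC4-CR. WNT5A made up 86.0% of that sum in LnCaP-abl, 83.3% in LAPC4-CR and 39.4% in LAPC4. In LnCaP the leading ligand was WNT10B (24.6%), and in VCaP and VCaP-CR it was WNT2 (18.0% and 28.5%), although in VCaP the counting intervals of WNT2 and WNT10B overlapped.

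Of the 10 Frizzled receptors 9 reached 1 scaled FPKM, and different members led in different lines. Their summed scaled FPKM was 26.1 in LnCaP against 40.8 in LnCaP-abl, 44.6 in VCaP against 33.1 in VCaP-CR, and 58.1 in LAPC4 against 48.8 in LAPC4-CR. The leading receptor was FZD6 in LnCaP (31.6% of the sum), FZD1 in LnCaP-abl (31.4%), FZD4 in VCaP (24.8%), FZD6 in VCaP-CR (27.8%), FZD2 in LAPC4 (21.4%) and FZD3 in LAPC4-CR (35.0%). The counting interval of the leader overlapped that of FZD6 in LnCaP-abl and that of FZD3 in LAPC4. The sum was higher in the resistant line of the LnCaP pair and lower in that of the VCaP and LAPC4 pairs.

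**Figure D2:**
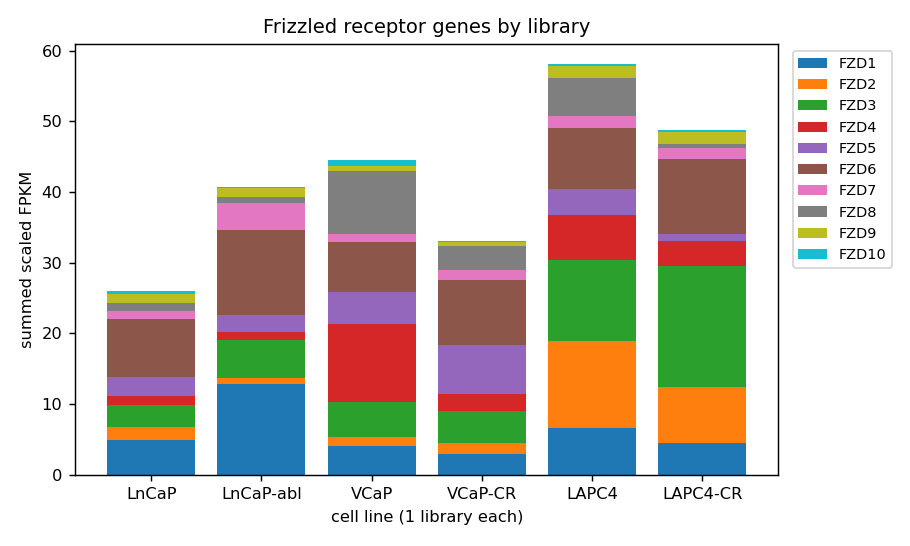
Stacked bars of scaled FPKM for the FZD genes in each of the 6 libraries, starting at 0. FZD2 is a thick layer only in LAPC4 (12.4) and LAPC4-CR (7.96), FZD4 is thickest in VCaP (11.1), and FZD1 is thickest in LnCaP-abl (12.8).

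FZD8 (ENSG00000177283, chromosome 10, 35967183 to 35970368), a receptor for canonical ligands, was lower in VCaP-CR and LAPC4-CR, and in LnCaP-abl only within counting error. It had 36 and 30 counts in LnCaP and LnCaP-abl, 285 and 175 in VCaP and VCaP-CR, and 231 and 45 in LAPC4 and LAPC4-CR. Its scaled FPKM was 1.20 and 0.818, 8.98 and 3.40, and 5.46 and 0.583 in the same order. The groups overlapped, with LnCaP below VCaP-CR. The resistant line was 1.47-fold lower in the LnCaP pair (0.881 to 2.47), 2.64-fold lower in the VCaP pair (2.18 to 3.21) and 9.36-fold lower in the LAPC4 pair (6.78 to 13.2). The edgeR quasi-likelihood log2 change was -1.74 (SE 0.54, adjusted p = 0.526).

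FZD4 (ENSG00000174804, chromosome 11, 86334369 to 86344081), the Norrin and WNT receptor of vessel biology, was at 1.20 scaled FPKM in LnCaP against 1.17 in LnCaP-abl, 11.1 in VCaP against 2.31 in VCaP-CR, and 6.41 in LAPC4 against 3.47 in LAPC4-CR. VCaP-CR was 4.79-fold below VCaP (4.18 to 5.52) and LAPC4-CR 1.84-fold below LAPC4 (1.65 to 2.06), and the LnCaP lines did not differ beyond counting error. The gene overlaps PRSS23, which had 556 and 260 counts in VCaP and VCaP-CR and 828 and 6717 in LAPC4 and LAPC4-CR, so the share of reads in the overlap is uncertain. FZD5 was at 2.70 and 2.40 in the LnCaP lines, 4.55 and 7.02 in VCaP and VCaP-CR, and 3.72 and 1.05 in LAPC4 and LAPC4-CR. VCaP-CR was 1.54-fold above its parent (1.35 to 1.77) and LAPC4-CR 3.53-fold below (2.93 to 4.27), which are opposite directions.

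FZD1 and FZD7 were higher in LnCaP-abl than in any other line. FZD1 (ENSG00000157240, chromosome 7, 90731719 to 90736059) was at 4.94 and 12.8 scaled FPKM in LnCaP and LnCaP-abl (2.59-fold, 2.21 to 3.05), at 4.14 and 2.88 in VCaP and VCaP-CR, and at 6.56 and 4.52 in LAPC4 and LAPC4-CR. In the last 2 pairs the resistant line was 1.44-fold (1.17 to 1.77) and 1.45-fold (1.26 to 1.67) lower. FZD7 was at 1.14 and 3.86 in LnCaP and LnCaP-abl (3.40-fold, 2.41 to 4.91) and between 1.07 and 1.72 in the other 4 libraries, where each pair's intervals overlapped.

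FZD2 and FZD3 followed the LAPC4 line. FZD2 was at 12.4 scaled FPKM in LAPC4 against 7.96 in LAPC4-CR and between 0.961 and 1.79 in the other 4 libraries. FZD3 was at 11.3 in LAPC4 against 17.1 in LAPC4-CR, at 3.17 and 5.29 in LnCaP and LnCaP-abl, and at 4.98 and 4.62 in VCaP and VCaP-CR. Both genes were highest in the LAPC4 lines, and within that line the resistant library was 1.56-fold lower for FZD2 (1.35 to 1.81) and 1.51-fold higher for FZD3 (1.43 to 1.58). FZD6, a receptor that restrains canonical signalling in several systems, was at 8.24 and 12.0 in LnCaP and LnCaP-abl, 7.14 and 9.20 in VCaP and VCaP-CR, and 8.56 and 10.7 in LAPC4 and LAPC4-CR. It was the most even of the well-expressed receptors, with each resistant library above all sensitive ones by 1.24-fold to 1.45-fold of its parent, but edgeR's adjusted p was 0.638 and the groups overlapped with FPKM as deposited or scaled to equal protein-coding totals. FZD9 was at 0.581 to 1.75, and FZD10 did not exceed 0.917.

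LRP6, the co-receptor of canonical signalling (ENSG00000070018, chromosome 12, 12160226 to 12311213), was higher in every resistant line, and by a more even factor than WNT5A. It had 287 and 926 counts in LnCaP and LnCaP-abl, 535 and 1394 in VCaP and VCaP-CR, and 383 and 1525 in LAPC4 and LAPC4-CR. Its scaled FPKM was 2.96 and 7.79, 5.19 and 8.35, and 2.79 and 6.09 in the same order. All 3 resistant libraries lay above all 3 sensitive ones. The ratio was 2.63-fold in the LnCaP pair (2.30 to 3.01), 1.61-fold in the VCaP pair (1.45 to 1.78) and 2.18-fold in the LAPC4 pair (1.95 to 2.45), and the mean change was 0.88 ± 0.28 (SD, n = 3 pairs). The edgeR quasi-likelihood log2 change was 1.07 (SE 0.26, adjusted p = 0.526), and DESeq2 gave an adjusted p of 0.0779, neither past 5%. LRP5, the sister co-receptor, was at 3.61 and 4.74 in LnCaP and LnCaP-abl and between 2.61 and 2.87 in the other lines. LRP6 was the higher of both co-receptors in LnCaP-abl, VCaP, VCaP-CR and LAPC4-CR, while in LnCaP and LAPC4 the counting intervals of their levels overlapped. LRP6 overlaps BCL2L14, which had 17 to 49 counts per library.

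**Figure D3:**
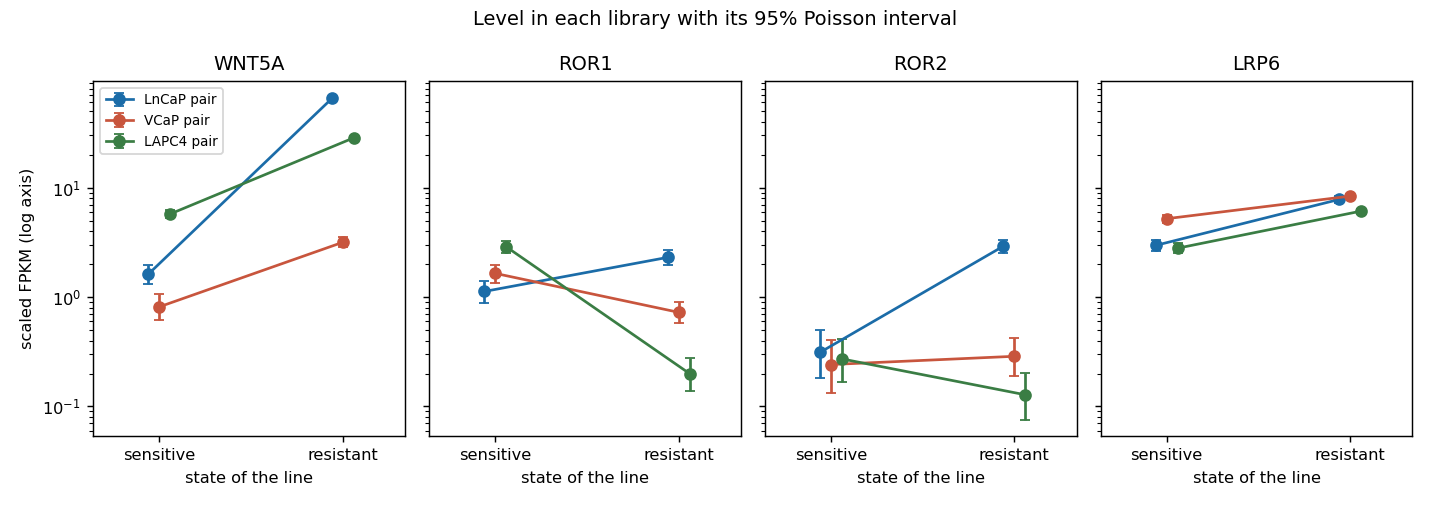
Scaled FPKM (log axis) of WNT5A, ROR1, ROR2 and LRP6 in the sensitive and the resistant library of each line, joined by a line per pair, with 95% Poisson intervals as bars. WNT5A and LRP6 slope upward in all 3 pairs, ROR1 slopes upward in the LnCaP pair and downward in the VCaP and LAPC4 pairs, and ROR2 stands apart in LnCaP-abl at 2.91.

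The ROR receptor tyrosine kinases, which bind WNT5A, were both higher in LnCaP-abl than in LnCaP, and ROR1 was lower in the other resistant lines. ROR1 (ENSG00000185483, chromosome 1, 64012281 to 64419769) had 72 and 181 counts in LnCaP and LnCaP-abl, 112 and 80 in VCaP and VCaP-CR, and 261 and 33 in LAPC4 and LAPC4-CR. Its scaled FPKM was 1.12 and 2.30, 1.64 and 0.724, and 2.88 and 0.199 in the same order. It was 2.05-fold higher in LnCaP-abl than in LnCaP (1.55 to 2.73), 2.27-fold lower in VCaP-CR than in VCaP (1.69 to 3.06) and 14.4-fold lower in LAPC4-CR than in LAPC4 (10.0 to 21.4). LAPC4-CR, with the second highest WNT5A, had the lowest ROR1. That level was within the marker background, so the size of the 14.4-fold drop is uncertain. Several pseudogene and small RNA entries lie inside ROR1, the most counted of them RP4-597J3.1 with 27 to 98 counts per library, so its reads are uncertain at that scale. ROR2 (ENSG00000169071, chromosome 9, 93365194 to 93752265) had 17 and 195 counts in LnCaP and LnCaP-abl and 14 to 27 in the other 4 libraries. It was at 2.91 scaled FPKM in LnCaP-abl, 9.35-fold above LnCaP (5.69 to 16.4), and between 0.128 and 0.312 in the other 5 libraries. LnCaP was thus within the marker background, and the size of the 9.35-fold rise is uncertain. LnCaP-abl was thus the only line in which WNT5A and both ROR genes were each above 1 scaled FPKM.

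RSPO1 (ENSG00000169218, chromosome 1, 37849538 to 37873182) was the only R-spondin above 1 scaled FPKM. It was at 4.05 and 2.78 in LnCaP and LnCaP-abl, 2.51 and 6.97 in VCaP and VCaP-CR, and 1.26 and 4.06 in LAPC4 and LAPC4-CR. VCaP-CR was 2.78-fold above VCaP (2.17 to 3.59) and LAPC4-CR 3.22-fold above LAPC4 (2.40 to 4.39). LnCaP-abl went the opposite way, 1.46-fold below LnCaP (1.11 to 1.92), although the counting intervals of the LnCaP and LnCaP-abl levels overlapped. SFRP1 was the only SFRP or DKK gene that passed 1. It was at 0.583 and 0.548 in LnCaP and LnCaP-abl, 4.79 and 5.28 in VCaP and VCaP-CR, and 8.33 and 1.32 in LAPC4 and LAPC4-CR. Thus it was near background in both LnCaP lines, level in the VCaP lines and 6.31-fold lower in LAPC4-CR than in LAPC4 (5.26 to 7.61). The highest Dickkopf level was 0.618 scaled FPKM (DKK1 in LAPC4-CR), so no Dickkopf gene stood above the marker background in any line.

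Across the 3 pairs, edgeR's quasi-likelihood test called 0 of the 19 tested genes higher and 0 lower in resistant lines at an adjusted p under 5%, and it called 0% of all 17415 tested genes. The smallest adjusted p of any gene was 0.227. At an unadjusted p under 0.05, WNT5A and LRP6 were higher and FZD8 and FZD4 lower, that is, 2 and 2 of 19 genes against 4.96% and 3.97% of all tested genes. DESeq2 called 1 of the 19 higher (WNT5A) and 0 lower, against 0.534% and 0.367% of all tested genes, and edgeR with no filter on low values called 1 of the 45 higher (WNT5A) and 0 lower, against 0.151% and 0.119%. The test by limma on log2(scaled FPKM + 1) called 0. In direction alone, 3 of the 19 were higher in all 3 pairs (WNT5A, LRP6 and FZD6), against 16.4% of all tested genes. Lower in all were 3 (FZD8, FZD4 and WNT3), against 17.0%, with the LnCaP pair within counting error for FZD8 and FZD4. WNT3 rested on few counts, and both of its LAPC4 levels were under 1 scaled FPKM. The resistant libraries all lay above the sensitive ones for 2 of the 19 (LRP6 and FZD6) and below for 0, against 3.9% and 4.08%. The median edgeR log2 change was 0.09 over the 19 genes and 0.00 over all tested genes.

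Within pairs, the 45 genes had different sets past 2-fold on the log2(scaled FPKM + 1) scale. In the LnCaP pair 5 genes were higher (WNT5A, ROR2, FZD1, FZD7 and LRP6) and 0 lower, against 4.98% and 2.29% of 19950 protein-coding genes and 6.71% and 7.85% of tested genes. In the VCaP pair 2 were higher (WNT5A and RSPO1) and 2 lower (FZD4 and FZD8), against 1.38% and 1.2% of protein-coding and 2.57% and 2.37% of tested genes. In the LAPC4 pair 2 were higher (WNT5A and RSPO1) and 5 lower (ROR1, FZD8, SFRP1, WNT9A and FZD5), against 4.33% and 2.63% of protein-coding and 5.77% and 6.82% of tested genes. The shares of the 45 genes were 11.1% higher in the LnCaP pair, 11.1% lower in the LAPC4 pair and 4.44% each way in the VCaP pair. The median change of the 45 genes was -0.12 for LnCaP, -0.06 for VCaP and -0.05 for LAPC4, against -0.02, -0.01 and 0.00 over all protein-coding genes, but 26 of the 45 averaged under 1. Over the 19 tested genes the median was 0.00 for LnCaP, 0.03 for VCaP and -0.14 for LAPC4. WNT5A was the one gene past 2-fold in the same direction in every pair.

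**Figure D4:**
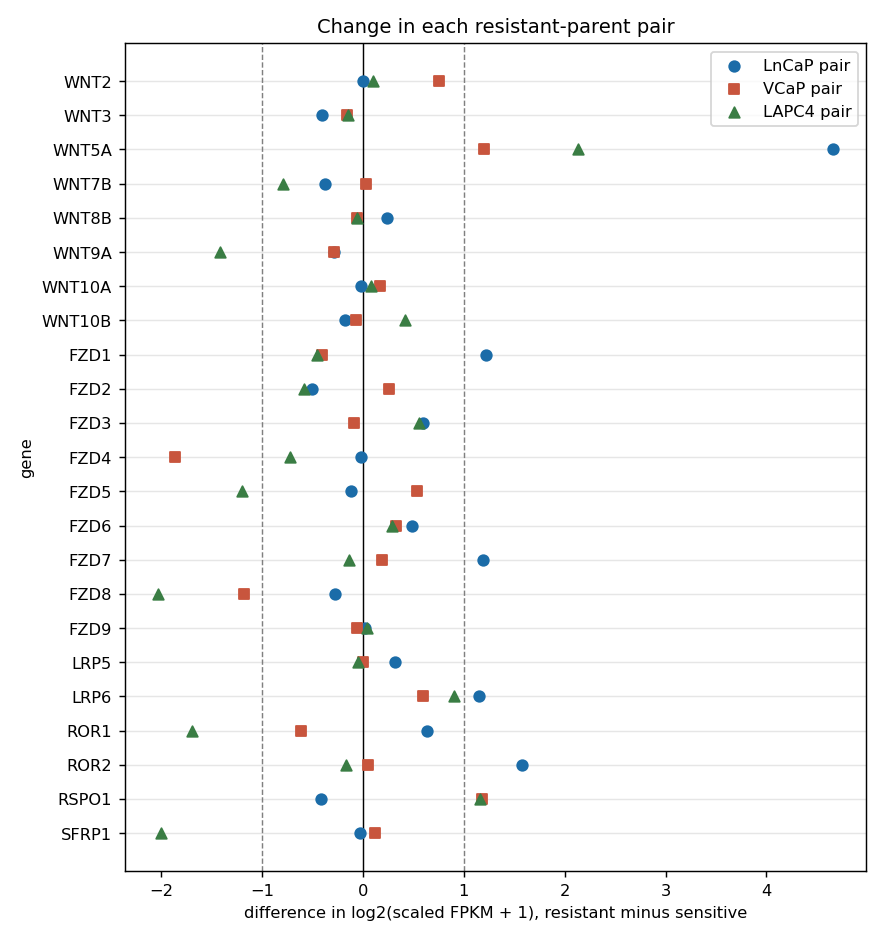
Change (resistant minus sensitive, log2(scaled FPKM + 1)) of the genes that reached 1 scaled FPKM in a library, 1 point per pair, with dashed lines at 2-fold either way. WNT5A is to the right in all 3 pairs (4.66, 1.20 and 2.13), and ROR1 (0.64, -0.62 and -1.69) and FZD1 (1.22, -0.41 and -0.45) have points on both sides of 0.

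Which genes kept to the parental line, whatever the state, was asked with an edgeR quasi-likelihood F test over the 3 lines. It called 5 of the 19 tested genes at an adjusted p under 5%, against 12.1% of all tested genes. They were WNT2 (adjusted p = 0.00412, high in the VCaP lines), FZD2 (0.0134) and FZD3 (0.0259), both high in the LAPC4 lines, and WNT10B (0.0447) and WNT3 (0.0451), both low in the LAPC4 lines. WNT2 averaged 1 or more only through the VCaP lines, so its call was fixed by the filter and is a description. WNT3 averaged 1 or more only through the LnCaP and VCaP lines together. Its call is thus also given as a description, which leaves FZD2, FZD3 and WNT10B. WNT2 and FZD2 were called in 12 of 12 fits, FZD3 in 11, WNT10B in 8 and WNT3 in 7, and the count was 3 without VCaP-CR, 8 without LnCaP-abl or LAPC4-CR and 9 without LAPC4. DESeq2 called 9 of the 19 by line, against 22.9% of all tested genes, and edgeR with no filter on low values called 12 of the 45, against 10.9% of the genes it tested.

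The rest of the pathway was read from 7 lists of 70 genes, of which 49 entered the tests. Across the 3 pairs edgeR's quasi-likelihood test called 0 of the 49 in either direction. Past 2-fold on the log2(scaled FPKM + 1) scale, 5 of the 70 were higher and 1 lower in the LnCaP pair, 1 and 0 in the VCaP pair and 4 and 4 in the LAPC4 pair. Of all tested genes, 6.71% were higher and 7.85% lower in the LnCaP pair. The shares were 2.57% and 2.37% in the VCaP pair and 5.77% and 6.82% in the LAPC4 pair. Of all protein-coding genes they were 4.98% and 2.29%, 1.38% and 1.2%, and 4.33% and 2.63% in the same order of pairs. Every list gene past 2-fold was among the 49 tested, so beside the tested shares the counts are out of 49. Whether the lists differ from these shares was not tested. WLS, which carries WNT proteins to the cell surface, was at 2.76 and 6.99 scaled FPKM in LnCaP and LnCaP-abl, 2.05 and 3.98 in VCaP and VCaP-CR, and 0.467 and 2.64 in LAPC4 and LAPC4-CR. It was higher in every resistant line (edgeR log2 change 1.57, SE 0.38, adjusted p = 0.526), although the groups overlapped. PORCN, which adds the lipid to WNT proteins, stayed between 0.40 and 1.55.

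Among receptor regulators, the ubiquitin ligase RNF43 was at 1.57 and 5.07 scaled FPKM in LnCaP and LnCaP-abl, 3.29 and 2.81 in VCaP and VCaP-CR, and 0.642 and 3.24 in LAPC4 and LAPC4-CR. Its relative ZNRF3 stayed between 2.47 and 3.80. LGR4, an R-spondin receptor, was at 13.4 in VCaP, 23.7 in VCaP-CR and 2.63 to 4.32 elsewhere. The WNT co-receptors RYK and PTK7 were at 3.64 to 9.95 and 1.43 to 5.92, with PTK7 lowest in LAPC4-CR.

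In the nucleus, LEF1, a TCF/LEF factor and itself a β-catenin target, was at 0.935 and 9.03 scaled FPKM in LnCaP and LnCaP-abl, 28.1 and 42.7 in VCaP and VCaP-CR, and 7.01 and 1.36 in LAPC4 and LAPC4-CR. Its changes of 2.37, 0.59 and -1.76 had no common direction. AXIN2, a feedback target of β-catenin that many tissues share, was at 1.13 and 1.72 in LnCaP and LnCaP-abl, 0.73 and 0.92 in VCaP and VCaP-CR, and 1.15 and 0.43 in LAPC4 and LAPC4-CR. No line had it above 1.72. TLE3, a co-repressor of TCF/LEF factors, was higher in each resistant line, at 11.1 and 24.1, 12.1 and 16.5, and 14.3 and 31.3 (edgeR quasi-likelihood log2 change 0.90, SE 0.26, adjusted p = 0.526). CTNNB1, which encodes β-catenin, lay between 98.8 and 161.5. APC encodes a scaffold of the β-catenin destruction complex. It was at 5.03 and 8.78 in LnCaP and LnCaP-abl, 2.49 and 3.98 in VCaP and VCaP-CR, and 3.55 and 6.44 in LAPC4 and LAPC4-CR. APC was thus higher in each resistant line (edgeR quasi-likelihood log2 change 0.78, SE 0.23, adjusted p = 0.526), although the groups overlapped. Of all tested genes, 16.4% were higher in all 3 pairs. A shared direction alone thus does not set WLS, TLE3 or APC apart.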

How the data were processed

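Total RNA of 6 cell lines was sequenced with the SOLiD Total RNA-Seq kit, 1 library per line, per the labels' protocols. Per the file headers, each deposited table gives a gene length, a whole-number count and an FPKM value per gene. The deposited FPKM was rebuilt within 1% for 100% of genes as the count divided by the length and the summed counts. The submitters' processing notes name HTSeq and hg18. The aligner is not given in the sources used here, nor is the use of strand or the treatment of reads with several matches, so overlapping genes and near-identical copies are uncertain. Deposited starts count from 0, and 1 was added.

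Entries that share a symbol were summed (47032 symbols), and 1382 symbols of small RNAs were left out. FPKM was scaled with 1 median-ratio factor for each library, computed from the 12507 genes that reached 1 FPKM in every library. Genes that averaged 1 scaled FPKM or more were tested (17415, of which 11343 were protein-coding) on the deposited counts with edgeR 4.0.16 (R 4.3.3; TMM factors, quasi-likelihood test, parental line as a block), with Benjamini-Hochberg adjustment over all of them and a threshold of 5%. The line test was the F test of the line terms in the same fit. With 1 library per line, p-values of the test across pairs rest on how the change varied between the 3 pairs. Those of the line test rest on the same spread, with parent and derivative taken as the 2 libraries of a line. Changes use log2(scaled FPKM + 1), with a pseudocount of 1. The pairing comes from the line names. Deviations from the group means correlated over the tested genes between parent and derivative at 0.45 for LnCaP, 0.70 for VCaP and 0.57 for LAPC4.

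DESeq2 1.42.0, limma 3.58.1 and other filters, scalings and pseudocounts were alternatives. The edgeR script was tested on simulated data. All 45 genes could be named. Of the other pathway genes, 11 were always given, and others where they were at least 2-fold apart in the same direction in 2 or more pairs. The genes and lists were chosen with earlier results of these data known.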

Additional observations from a re-analysis of the deposited data

Results flagged for a closer look

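FZD1, FZD5 and ROR1 are listed because their resistant line was higher than its parent in 1 pair and lower in another, with counting intervals that did not overlap in either pair. With 1 library per state in each line, the difference between pairs was not tested. For FZD1 the log2 change in the LnCaP pair exceeded that in the VCaP pair by 1.62 and that in the LAPC4 pair by 1.67. For FZD5 the change in the VCaP pair exceeded that in the LAPC4 pair by 1.73. For ROR1 the change in the LnCaP pair exceeded that in the VCaP pair by 1.25 and that in the LAPC4 pair by 2.33.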

How the results depend on the processing

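The count of genes called higher across the 3 pairs was 0 with edgeR and 1 (WNT5A) with DESeq2 and with no filter on low values, and 0 to 1 when a pair was left out, the 1 being without the LAPC4 pair. No alternative called a gene lower. Without the replicate block, that is, with the parental line left out of the model, edgeR called 0 genes either way. The same fit with the block had called 0 already, and no other fit was run without it. What the pairing does to the calls was therefore not tested. The count of genes that differed between parental lines, 5 at first, was 9 with DESeq2, 12 with no filter on low values and 3 with protein-coding genes only. It was 3 to 9 when single libraries were left out, an alternative chosen after seeing the data: 3 without VCaP-CR, 8 without LnCaP-abl, 8 without LAPC4-CR and 9 without LAPC4. With a pseudocount of 5, the genes at least 2-fold higher numbered 1 for LnCaP, 0 for VCaP and 1 for LAPC4, and those at least 2-fold lower 1 for VCaP and 1 for LAPC4. With a pseudocount of 0.25, 3 genes were at least 2-fold lower in the LnCaP pair. The mean change of WNT5A stayed positive, from 1.66 to 3.39 when a pair was left out and from 1.85 to 3.02 over pseudocounts. Scaling to equal protein-coding totals put the median change of tested genes at -0.18 for LnCaP, -0.05 for VCaP and -0.15 for LAPC4, against -0.01, -0.01 and 0.00 with the scaling used. Of 69 changes of the 23 genes, 2 turned sign with it (both FZD9) and 1 with FPKM as deposited (LRP5). These changes were at most 0.039 in size with the scaling used and at most 0.107 with the alternative. Genes with few counts, such as WNT3 and WNT8B, are limited by depth.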

Other observations

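The pathway genes in this paragraph were named after their values were seen. VANGL1, a planar cell polarity gene, was at 3.14 and 7.26 scaled FPKM in LnCaP and LnCaP-abl, 2.75 and 3.98 in VCaP and VCaP-CR, and 3.30 and 10.7 in LAPC4 and LAPC4-CR. It was higher in all 3 resistant lines, although the groups did not pass the test (edgeR quasi-likelihood log2 change 1.15, SE 0.30, adjusted p = 0.526). TNFRSF19, a β-catenin target, was at 8.92 and 0.699 in LnCaP and LnCaP-abl, 0.688 and 3.06 in VCaP and VCaP-CR, and 4.87 and 7.66 in LAPC4 and LAPC4-CR, so LnCaP-abl went the opposite way from the other resistant lines. The difference between pairs was not tested. MYC, which β-catenin and many other inputs regulate, was lower in every resistant line, at 49.1 and 25.7, 77.1 and 62.7, and 34.1 and 13.3 in the same order of pairs (edgeR quasi-likelihood log2 change -0.86, SE 0.30, adjusted p = 0.526). Of all tested genes, 16.4% were higher and 17.0% lower in all 3 pairs, so the direction alone does not set VANGL1 or MYC apart. TLE1, a co-repressor, was at 29.4 in LAPC4 and 13.5 in LAPC4-CR against 0.858 to 8.38 in the other 4 libraries. WIF1, a secreted WNT inhibitor, was at 2.33 in VCaP-CR and at 0.663 or less in the other 5 libraries.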
